A study of Rattus norvegicus with 4 samples.

Results

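The genes described here activate glucocorticoid, receive it, or respond to it: Hsd11b1, Nr3c1, Sgk1, Fkbp5, Tsc22d3, Glul and Tat. They were chosen by name, and every probe set that the platform's annotation pairs with only that symbol was taken. All 7 genes had a probe set, 10 probe sets in all, of the 10411 named genes on the array. Visceral fat was taken from male rats of the Wistar stock at 130 days of age, and its RNA was hybridised to 2 arrays labelled control and 2 labelled obese. The labels give no diet, strain variant, lesion or drug by which the obese animals became obese, nor do they tell single animals from pools, so p-values here reflect the spread among these 4 samples and that spread may be technical. The comparison asked how these genes differed between obese and control visceral fat.

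Glucocorticoids are adrenal steroids that circulate in an active and an inactive form. In fat, the enzyme 11-beta-hydroxysteroid dehydrogenase type 1, the product of Hsd11b1, regenerates the active hormone inside the cell, using NADPH made in the endoplasmic reticulum by the product of H6pd. The hormone binds the glucocorticoid receptor, Nr3c1, which is held ready by heat shock protein chaperones, moves to the nucleus and switches on targets such as Sgk1, Fkbp5 and Tsc22d3. In fat the hormone supports both the differentiation of adipocytes and the release of fatty acids, and it restrains inflammatory genes.

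Signals are linear intensities, 1 per probe set and array, already brought to a common level in the deposited table. The median signal of an array lay between 75.0 and 83.1, and across probe sets the correlation of log2 signals was 0.976 between the control arrays and 0.966 between the obese arrays. Values at or under a floor of 20.8 were treated as too dim to rank. Markers of adipocytes were bright, with 7 of 10 listed genes measured, all 7 above the floor on every array, and summed signals of 10531 to 11048 in control and 10911 to 13036 in obese tissue. Signals of different probe sets are not levels on 1 scale, so genes are compared here only between arrays.

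Of the 7 genes, 6 were above the floor on all 4 arrays and could be tested. None of the 6 passed limma's moderated test at an adjusted p of 0.05, against 0 of 12929 probe sets over the whole array (0%). At an unadjusted p under 0.05 stood 1 of the 6, Sgk1, against 1073 probe sets over the array (8.3%), and with an unmoderated test the array-wide numbers were 882 (6.82%) at that unadjusted threshold and 0 after adjustment. The groups did not overlap for 1 of the 6 genes, against 40% of all tested probe sets. In that gene, Sgk1, the obese arrays were the higher, as in 15.6% of all tested probe sets, and 0 of the 6 had lower obese arrays without overlap, against 24.4%. After centring every array on its median signal, the array-wide shares were 21.7% above and 16.9% below, and 3 of the 6 genes then had higher obese arrays without overlap (Sgk1, Nr3c1 and Tsc22d3). With cyclic loess, Sgk1 was higher and Glul lower without overlap, where the array-wide shares were 19% and 20.3%. The median log2 difference of the 6 genes was 0.18, and that of all tested probe sets was -0.04.

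**Figure D1:**
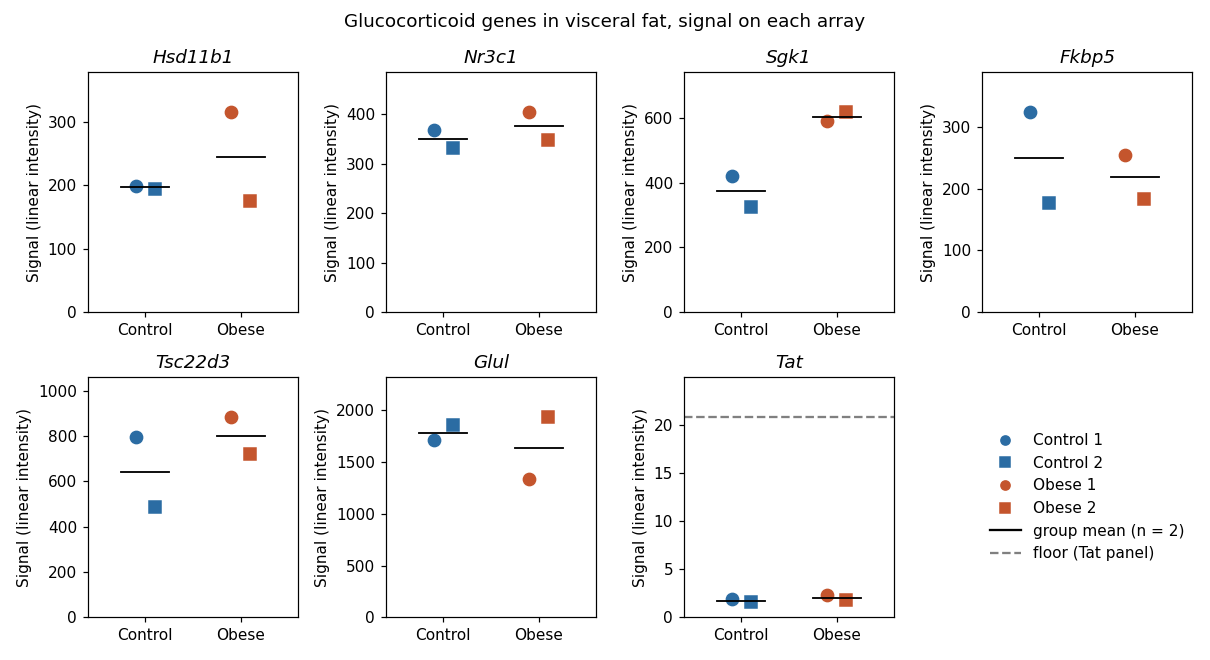
Signal (linear intensity, each panel with its own axis from 0) of the main probe set of each gene on the 2 control and 2 obese arrays, with a line at each group mean. The obese arrays of Sgk1 stand above both control arrays, the groups of Hsd11b1, Nr3c1, Fkbp5, Tsc22d3 and Glul overlap, and Tat lies under the floor of 20.8 on every array.

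Hsd11b1, the enzyme that regenerates active hormone, had signals of 199.3 and 193.3 on the control arrays and of 315.2 and 174.3 on the obese arrays. The control arrays were close together, and the obese arrays lay on either side of them. The group means were 196.3 ± 4.24 (SD, n = 2) and 244.8 ± 99.6, and the log2 difference, obese minus control, was 0.26 ± 0.28 (SE; 95% interval -0.44 to 0.95), which did not pass (limma, adjusted p = 0.846). The direction rested on obese replicate 1. Without that array the difference was -0.17, and without obese replicate 2 it was 0.68.

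Markers of mesothelium, the cell sheet that covers visceral fat, moved with Hsd11b1 between the obese arrays. The list had 4 of its 6 genes measured, all above the floor on every array, and their summed signal was 1441.5 on obese replicate 1 and 348.5 on obese replicate 2, with 745.3 and 884.7 on the control arrays. The keratin gene Krt19 gave 405.4 and 47.8 on obese replicates 1 and 2, against 114.7 and 118.5 on the control arrays. The transcription factor gene Wt1 gave 252.7 and 86.7 on the obese arrays, and the mesothelin gene Msln gave 590.7 and 164.7. All 4 markers and Hsd11b1 were highest on obese replicate 1 and lowest on obese replicate 2, and the keratin gene Krt8 gave 192.7 and 49.3 there. This order was not particular to mesothelium. The endothelial marker Vwf had it too, with 206.7 and 207.0 in control and 292.8 and 166.8 in obese tissue, though the other endothelial markers measured did not. Over all tested probe sets, obese replicate 1 was above obese replicate 2 in 56.7%. That share covers the order of the obese arrays alone. The share of probe sets with the full order over all 4 arrays was not computed. The part of these cells in the Hsd11b1 values was not tested, and in whole tissue fewer cells of a type and less RNA per cell cannot be told apart.

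**Figure D2:**
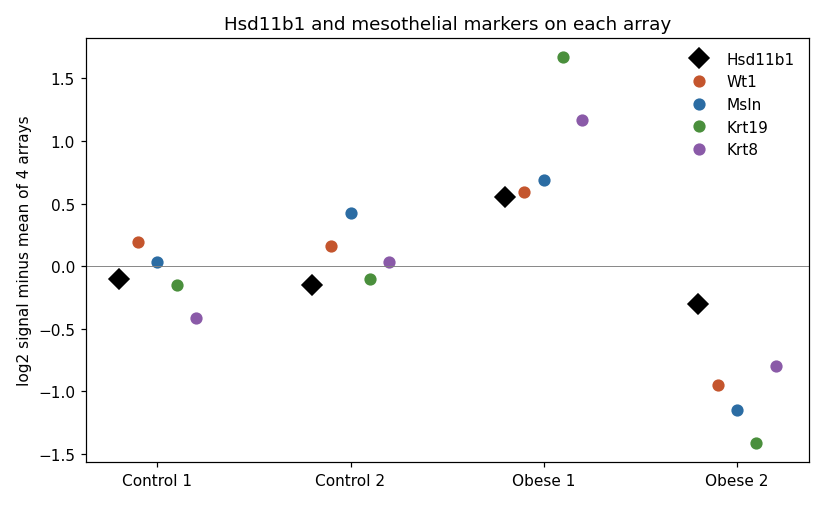
Log2 signal of Hsd11b1 (diamonds) and of the mesothelial markers Wt1, Msln, Krt19 and Krt8 (circles) on each of the 4 arrays, each gene relative to its own mean over the arrays. All 5 genes are highest on obese replicate 1, where Hsd11b1 had a signal of 315.2, and all are lowest on obese replicate 2, where it had 174.3.

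The other genes of a list of steroid conversion and transport had no call either. H6pd, which supplies NADPH to the Hsd11b1 enzyme, had signals of 65.3 and 47.3 in control and 81.9 and 60.6 in obese tissue, overlapping groups with a log2 difference of 0.34 ± 0.26. Leaving out control replicate 2 or obese replicate 1 gave 0.11 and 0.12, and leaving out control replicate 1 or obese replicate 2 gave 0.57 and 0.56. Hsd11b2, the enzyme of the opposite reaction, which inactivates the hormone, had 64.5 and 66.4 in control and 92.9 and 82.5 in obese tissue. These groups did not overlap, and the difference was 0.42 ± 0.18 (limma, adjusted p = 0.619). Hsd17b12, a reductase of the endoplasmic reticulum that is not an enzyme of glucocorticoid conversion, differed by 0.23 ± 0.15 without overlap (0.090 without obese replicate 2). Its signals were 775.3 and 696.8 in control and 782.5 and 953.1 in obese tissue, so obese replicate 1 was barely above control replicate 1. Akr1d1, a steroid reductase, and Cyp11b1, the adrenal enzyme of the last step of hormone synthesis, differed by 0.10 ± 0.50 and 0.31 ± 0.36. Cyp11b1 was under the floor on obese replicate 2, so its size depends on the floor. Both were highest on obese replicate 1, at 84.4 and 43.2, and lowest on obese replicate 2, at 28.7 and 12, and without obese replicate 1 they gave -0.68 and -0.21. Serpina6, the plasma carrier of the hormone, and Abcb1a, a membrane pump, were under the floor on all 4 arrays. Of this list of 11 genes 8 were measured and 6 tested. All 6 had higher means in obese tissue, as had 5491 of all 12929 tested probe sets, and 0 passed. Without overlap were 2 of them, Hsd11b2 and Hsd17b12 (33.3%, against 15.6% of all tested probe sets). The list's median difference was 0.28, against -0.04 over all tested probe sets, and it was -0.023 without obese replicate 1 and 0.62 without obese replicate 2.

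The glucocorticoid receptor gene Nr3c1 had signals of 367.9 and 332.8 on the control arrays and of 405.1 and 349.2 on the obese arrays. The lower obese array lay between the control arrays. The difference was 0.10 ± 0.14 (95% interval -0.24 to 0.45; limma, adjusted p = 0.881), the smallest in size among the 6 genes' main probe sets. It was -0.0029 without obese replicate 1, 0.032 without control replicate 2, 0.18 without control replicate 1 and 0.21 without obese replicate 2. A second probe set of the gene was much dimmer, with 48.2 and 34.2 in control and 37.8 and 42.3 in obese tissue, and differed by -0.02 ± 0.24. Nr3c2, the mineralocorticoid receptor, which binds the same hormone, differed by 0.12 ± 0.20, from 77.9 and 77.2 to 95.3 and 74.3, and gave -0.062 with obese replicate 1 left out.

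Fkbp5 encodes an immunophilin that sits on the receptor complex, lowers its affinity for hormone and is itself switched on by the receptor. Its signals were 324.1 and 176.4 on the control arrays and 253.9 and 183.2 on the obese arrays. Both obese arrays lay between the control arrays, of which the first was 1.84-fold the second. The difference was -0.15 ± 0.32 (95% interval -0.93 to 0.63; limma, adjusted p = 0.921), so that the gap between control arrays exceeded the difference between groups. The sign depended on which control array was used, at 0.29 when control replicate 1 was left out and -0.59 when control replicate 2 was. Leaving out obese replicate 2 gave 0.087 and leaving out obese replicate 1 gave -0.38.

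A list of receptor genes, chaperones and cofactors held 21 genes, among them Nr3c1, Nr3c2 and Fkbp5, and 16 of the 21 were tested. Means in obese tissue were higher for 13, Nr3c1 and Nr3c2 included, and lower for 3, Fkbp5 included. Over all 12929 tested probe sets, 5491 had higher and 7438 lower means. Of the 16, 6 were higher without overlap (37.5%, against 15.6% of all tested probe sets), 0 were lower without overlap (against 24.4%) and 0 passed. The list's median difference was 0.10, and 0.18 with median centring, 0.16 without control replicate 1 and 0.047 without obese replicate 1. Tsg101, an endosomal sorting protein that also binds the receptor, differed by 0.41 ± 0.17, with 162.2 and 194.5 in control and 217.7 and 256.9 in obese tissue, the only one of the 16 at an unadjusted p under 0.05, against 8.3% of all tested probe sets. St13, the Hsp70-interacting cochaperone, differed by 0.31 ± 0.16, and by 0.47 with its second probe set, both without overlap. Leaving out obese replicate 2 gave 0.12 and leaving out obese replicate 1 gave 0.49. The coactivator gene Crebbp had the lowest difference of the list, -0.32 ± 0.23 with overlapping groups. With that probe set, leaving out obese replicate 2 gave -0.052 and leaving out obese replicate 1 gave -0.58. Its second, dimmer probe set gave -0.61 without overlap, with 36.0 and 32.1 in control and 19.8 and 23.9 in obese tissue. There obese replicate 1 was under the floor, so the size depends on the floor.

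Sgk1, the serum and glucocorticoid-regulated kinase, which acts on ion channels and transporters downstream of PI3 kinase, had the largest difference of the genes described here. Its signals were 421.6 and 325.5 on the control arrays and 590.6 and 619.2 on the obese arrays. Both obese arrays exceeded both control arrays. The means were 373.6 ± 68.0 and 604.9 ± 20.2, a log2 difference of 0.71 ± 0.16 (95% interval 0.31 to 1.10), or 1.63-fold. The difference was larger than the gap within either group, yet it did not pass over all probe sets (limma, unadjusted p = 0.00490, adjusted p = 0.457). Of all tested probe sets, 1.06% had a smaller p and 3.64% a larger difference in size. Leaving out control replicate 2 gave 0.52 and leaving out control replicate 1 gave 0.89.

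**Figure D3:**
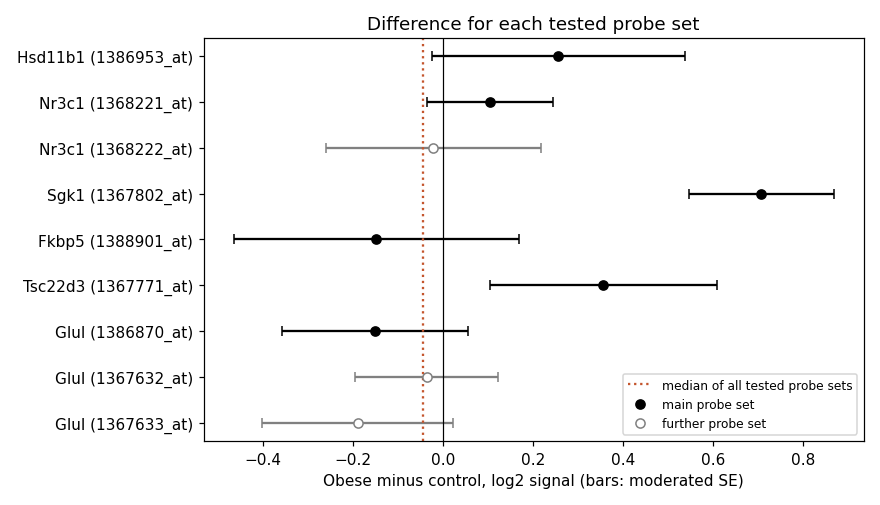
Log2 difference in signal, obese minus control, of the 9 tested probe sets, with bars for the moderated SE of limma (2 arrays per group), filled points for the main and open points for further probe sets of a gene. Sgk1 lies at 0.71 and the others between -0.19 and 0.36, and the dotted line marks the median of all tested probe sets at -0.04.

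Tsc22d3, also called GILZ, a leucine zipper protein by which glucocorticoids restrain inflammatory transcription factors, had signals of 795.8 and 487.5 on the control arrays and of 882.9 and 719.8 on the obese arrays. The groups overlapped because control replicate 1 exceeded obese replicate 2. The difference was 0.36 ± 0.25 (95% interval -0.27 to 0.98; limma, adjusted p = 0.748). Leaving out control replicate 1 gave 0.71 and leaving out control replicate 2 gave 0.0025, while leaving out obese replicate 2 or 1 gave 0.50 and 0.21. Tsc22d3 was highest on obese replicate 1, and Fkbp5 on control replicate 1. Of 10 genes listed as lymphocyte markers 9 were measured and 7 tested, with summed signals of 1572.4 and 1274.5 in control and 805.5 and 659.7 in obese tissue. Of these, Cd4, Cd37 and Ptprc are not limited to lymphocytes, so the sum does not read lymphocytes alone. The T cell gene Cd3d gave 77.7 and 26.2 on the control arrays and 28.8 and 23.3 on the obese arrays, whereas the control arrays were close together for Cd4 (569.1 and 540.8), Cd37 (221.7 and 227.7) and Ptprc (322.6 and 331.8). The part of lymphocytes and other leukocytes in the Tsc22d3 and Fkbp5 values was not tested.

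Glul, glutamine synthetase, which makes glutamine from glutamate and ammonia and is induced by glucocorticoids in muscle and fat, was read by 3 probe sets. The brightest gave 1710.8 and 1853.1 on the control arrays and 1330.3 and 1930.0 on the obese arrays, so that the obese arrays lay on either side of the control arrays. The difference was -0.15 ± 0.21 (95% interval -0.66 to 0.36; limma, adjusted p = 0.883), and it was 0.12 without obese replicate 1 and -0.42 without obese replicate 2. The second probe set gave 1488.0 and 1591.6, and then 1348.4 and 1669.2, a difference of -0.04 ± 0.16. The third gave 1139.5 and 989.3, and then 766.8 and 1129.2, a difference of -0.19 ± 0.21. On all 3, obese replicate 1 was the lowest array.

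Tat, tyrosine aminotransferase, a classical target of the hormone in liver, had signals of 1.9 and 1.6 in control and 2.3 and 1.8 in obese tissue. All 4 values were far under the floor, so no fold and no test is given. Of 9 liver markers, all were measured and 5 tested. The apolipoprotein gene Apoa1 gave at most 4.2 and Tdo2 at most 22.0, while the albumin gene Alb gave 107.7 and 200.7 in control and 213.2 and 177.0 in obese tissue.

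The 6 tested genes were compared with each other over the 4 arrays. After centring each gene on its mean log2 signal, the root mean square difference between 2 of them ranged from 0.24 for Nr3c1 and Tsc22d3 to 0.54 for Hsd11b1 and Glul. By the same measure, taken over 8415 other genes and 4 arrays, the closest genes to Sgk1 were Ndrg3 (0.050), Cgnl1 (0.052) and Mmp24 (0.068). Closest to Hsd11b1 were Ddah1 (0.025), Dgkg (0.030) and Zkscan1 (0.031), and Ddah1 had 67.4 and 68.5 in control and 108.4 and 59.7 in obese tissue. Fkbp5 was closest to the oestrogen receptor gene Esr1 (0.027), with 54.1 and 28.2 in control and 40.5 and 30.1 in obese tissue, then to Tmem171 (0.028) and Gpatch1 (0.044). Tsc22d3 was closest to Tmem183a (0.010), Brsk1 (0.060) and Reck (0.066), Glul to Crtc2 (0.016), Ubox5 (0.023) and Kdr (0.027), and Nr3c1 to Cops7a (0.0070), Mmrn2 (0.010) and Csnk1g3 (0.011). With 4 arrays such likeness is a description only. The closest of so many genes lie near by selection, and the difference between ordinary pairs of genes was not computed.

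Beyond these genes, a list of targets that glucocorticoids induce in fat, liver or other tissues held 42 symbols, of which 37 were measured and 31 tested. The list was chosen with earlier results of these data known, so its shares are a description only. Of the 31, 20 had higher and 11 lower means in obese tissue, against 5491 and 7438 of all 12929 tested probe sets. Of the same 31, 12 were higher without overlap (38.7%, against 15.6% of all tested probe sets) and 3 lower without overlap (9.68%, against 24.4%). Without Sgk1, Fkbp5, Tsc22d3 and Glul, the remaining 27 gave 11 higher (40.7%) and 3 lower (11.1%) without overlap, and 7 stood at an unadjusted p under 0.05 (25.9%, against 8.3%), 5 of them higher and 2 lower. Of the 31, 0 passed (limma, adjusted p from 0.373 to 0.984). Igfbp1, among the 12 and among the 11 higher of the 27, was over the floor only on its obese arrays. It could be tested only because it was higher there, at least 1.17-fold over the floor. With all 4 arrays required above the floor, 11 of 30 were higher and 3 lower without overlap, where the array-wide shares were 16% and 24.5%. The list's median difference was 0.13, against -0.04 over all tested probe sets. Without control replicate 1 it was 0.27, with 21 genes higher and 7 lower without overlap, where the array-wide shares were 28.4% and 39.6%. Without control replicate 2 it was 0.050, with 13 higher and 8 lower, where the shares were 27% and 39.2%, and without obese replicate 1 and 2 it was 0.21 and 0.098.

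The target with the largest t was Dusp1, the phosphatase that switches off MAP kinases, with 721.1 and 659.1 in control and 1189.2 and 1171.6 in obese tissue. Its difference was 0.78 ± 0.13 (limma, unadjusted p = 0.000922, adjusted p = 0.373), and its second probe set gave 1.10. Cebpb, a transcription factor of early adipocyte differentiation, had 335.0 and 346.7 in control and 473.7 and 547.4 in obese tissue, a difference of 0.58 ± 0.13. Mt2A, a metallothionein, had 647.1 and 706.7, and then 854.9 and 794.8, a difference of 0.29 ± 0.13. In these 3 genes the obese arrays stood above both control arrays, as they did in Sgk1.

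Errfi1, an inhibitor of the EGF receptor, and Nfkbia, the inhibitor of NF-kappa-B, were picked out after their values were seen, as the targets with the largest differences. Errfi1 had 422.1 and 204.4 in control and 867.3 and 645.4 in obese tissue, a difference of 1.35 ± 0.35, and 0.83 without control replicate 2. Nfkbia had 345.3 and 219.4, and then 651.1 and 472.2, a difference of 1.01 ± 0.26, and 0.68 without control replicate 2. In both, control replicate 2 was the lowest array and neither passed (limma, adjusted p = 0.467 for each).

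Several direct targets of the receptor had overlapping groups. The clock gene Per1 had 214.2 and 105.6 in control and 220.4 and 199.7 in obese tissue, a difference of 0.48 ± 0.33 with 0.99 when control replicate 1 was left out and -0.030 when control replicate 2 was. Ddit4, an inhibitor of mTORC1, had 317.9 and 102.6, and then 451.7 and 260.4, a difference of 0.93 ± 0.55, with 1.74 and 0.11 when control replicate 1 or 2 was left out. As with Fkbp5 and Tsc22d3, control replicate 1 was far above control replicate 2 in both. Klf9, a zinc finger transcription factor, had 651.9 and 431.4, and then 616.7 and 437.8, a difference of -0.03 ± 0.25, which was 0.050 with median centring and 0.27 without control replicate 1, and its dimmer probe sets gave 0.16 and -0.10. Pdk4, the kinase that restrains pyruvate oxidation, differed by 0.40 ± 0.27 (0.075 and 0.72 when control replicate 2 or 1 was left out), and Lpin1, a phosphatidate phosphatase, by 0.13 ± 0.29 (-0.32 without control replicate 2). Cebpd, another adipogenic factor, gave -0.03 ± 0.15 with its brightest probe set, a sign that flipped to 0.049 with median centring, and 0.85 with a second, whose obese signals of 156.7 and 115.6 were above the control signals of 78.6 and 70.8.

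**Figure D4:**
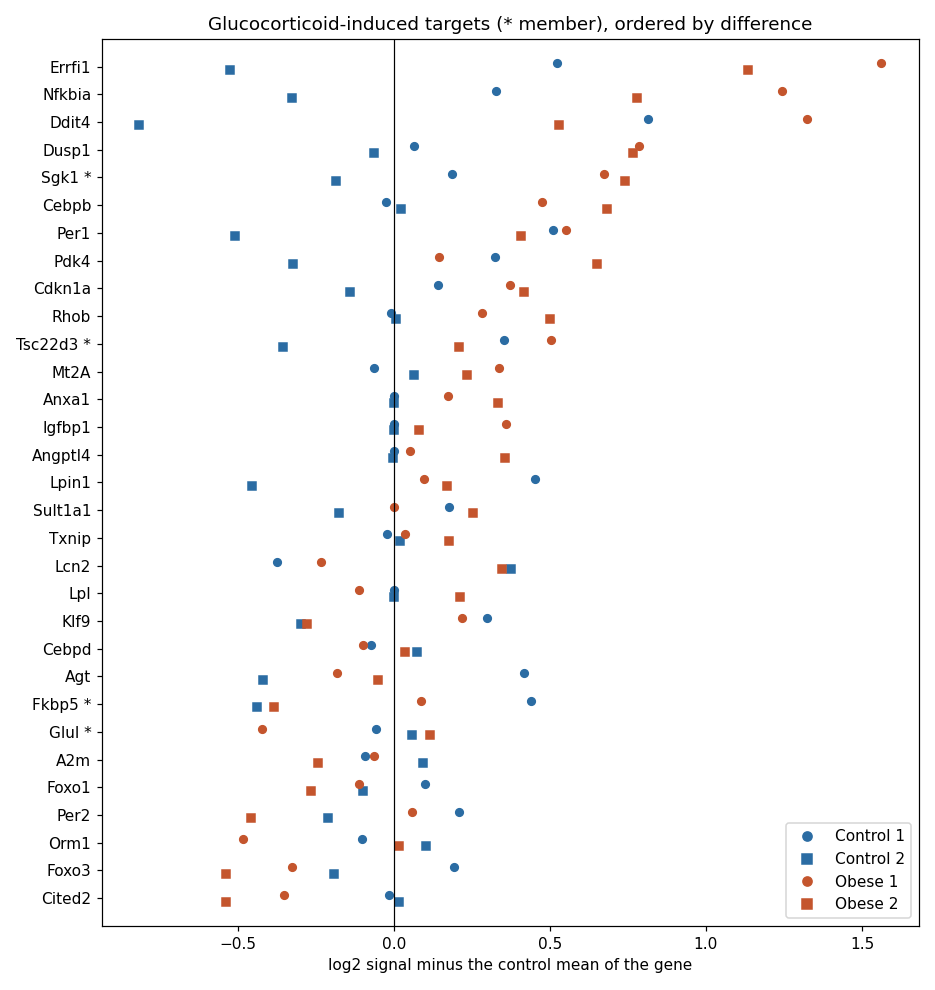
Log2 signal of the 31 tested glucocorticoid-induced targets on each array (2 control in blue, 2 obese in orange, circles for replicate 1 and squares for replicate 2), relative to the control mean of each gene and ordered by the difference between groups. Obese arrays stand right of both control arrays for 12 genes and left of both for 3, and the control arrays lie far apart for Ddit4, Errfi1, Per1, Lpin1 and Fkbp5.

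The control arrays were also compared with each other in these targets. The median gap between them, without regard to sign, was 0.28 on the log2 scale over the 31 targets and 0.18 over all tested probe sets. Control replicate 1 was the higher for 18 of 31 (58.1%, against 49.3%). Without Sgk1, Fkbp5, Tsc22d3 and Glul, the median gap over the remaining 27 was 0.21, near that of all tested probe sets. Control replicate 1 was then the higher for 15 of 27 (55.6%). The difference between groups exceeded the gaps within both groups for 11 of the 31 (35.5%, against 26.4% of all tested probe sets). Among the 6 genes this held for 1, Sgk1.

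The lowest t among the induced targets belonged to Cited2, a cofactor of CBP and p300, at -0.44 ± 0.13, and the forkhead factor Foxo3, at -0.43 ± 0.17, both lower without overlap. Foxo3 gave -0.24 and -0.62 when control replicate 1 or 2 was left out. Of 17 genes that glucocorticoids repress, all were measured and 11 tested. Of the 11, 4 had higher and 7 lower means, against 5491 and 7438 of all 12929 tested probe sets. Without overlap 0 were higher (against 15.6%) and 3 lower (27.3%, against 24.4%), and 0 passed. Their median difference was -0.14, and 0.14 without obese replicate 2. Plat, tissue plasminogen activator, had 461.6 and 412.5 in control and 346.6 and 284.8 in obese tissue, a difference of -0.47 ± 0.15. The cytokine gene Tnf, among the 3, had 28.1 and 29.1 in control tissue and 16.4 and 10.4, under the floor, in obese tissue, at least 1.37-fold lower. It could be tested only because it was higher in control tissue, so the filter fixed its direction. At the other end, the chemokine gene Cxcl1 differed by 0.44 ± 0.40 (-0.16 and 1.04 when control replicate 1 or 2 was left out), with control replicate 1 under the floor, and the adhesion molecule Icam1 by 0.18 ± 0.15 (0.054 and 0.30 when control replicate 1 or 2 was left out). Il6 was over the floor on 1 array only. Markers of macrophages, a main source of several of these products, were measured for 9 of 12 genes, all 9 with lower means in obese tissue, with summed signals of 7130.6 and 8007.9 in control and 6184.4 and 5910.4 in obese tissue, and their part in these values was not tested.

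The sequences in front of the gene starts were read for Sgk1, the gene whose groups stood apart, and Tsc22d3, the next largest difference. Both have a start with the letters TATAAA in the window. RefSeq windows on GRCr8, from 250 bases before to 50 after a start, were held for 6 of the 7 genes, 12 windows in all, of which 3 belong to Sgk1 and 3 to Tsc22d3. The receptor's palindromic element, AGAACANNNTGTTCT, was in 0 of the 12 and in 0.0149% of all 33469 windows. Its arm AGAACA, searched on both strands and part of the full element, was in 0 of the 12 and in 20.7% of all windows. TATAAA on the gene's own strand was in 3 of the 12 and in 8.8% of all. Another Sgk1 window, not printed here, has TATAAA 55 bases before its start. No match says only that these letters are not in these windows. The windows below lie at chr1:24804782-24805081 and chrX:109009985-109010284, both on the minus strand, and the capitals mark TATAAA, which begins 33 bases before the start in Sgk1 and 44 in Tsc22d3.
Sgk1: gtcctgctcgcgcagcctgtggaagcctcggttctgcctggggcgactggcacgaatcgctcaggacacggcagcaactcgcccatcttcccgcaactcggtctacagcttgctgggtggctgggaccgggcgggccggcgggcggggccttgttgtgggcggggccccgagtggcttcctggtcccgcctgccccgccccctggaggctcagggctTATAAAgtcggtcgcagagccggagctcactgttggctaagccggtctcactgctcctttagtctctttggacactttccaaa
Tsc22d3: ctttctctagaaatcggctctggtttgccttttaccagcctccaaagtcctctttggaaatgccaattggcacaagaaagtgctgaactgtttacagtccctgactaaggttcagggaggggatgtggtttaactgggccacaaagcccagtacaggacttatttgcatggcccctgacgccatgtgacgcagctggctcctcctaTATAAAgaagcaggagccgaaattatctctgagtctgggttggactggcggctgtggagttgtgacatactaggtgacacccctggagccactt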

How the data were processed

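The authors' deposited table gives 1 linear intensity per probe set and array. Scanner, software and normalization: not given in the sources used here. Judged by the values, the arrays had been scaled before deposit, since their 2% trimmed means lay between 149.6 and 149.8, and they were used as deposited. The 57 control probe sets were left out of 15923. Symbols came from the platform's annotation, checked by Entrez identifier against a GRCr8 gene table (12748 of 12783 found, 0 changed). The main probe set of a gene is the one with the highest mean. Values were raised to a floor of 20.8 (20th percentile), log2 was taken, and probe sets above it on at least 2 of the 4 arrays were tested, 12929 in all, with limma 3.58.1 in R 4.3.3 (trend, two-sided, Benjamini-Hochberg over all tested probe sets, threshold 0.05, 5.83 degrees of freedom). No exact permutation test was made, because 2 arrays against 2 allow no two-sided p under 0.333. The 95% intervals are not adjusted for multiple testing.

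The genes described, the gene lists and the rules were chosen with earlier results of these data known. Named genes are the 7 genes, 13 further symbols always named where measured, of which 12 were, and from each pathway list the 2 largest and the 2 smallest t. Errfi1 and Nfkbia were added after their values were seen. The code was tested on simulated data. Alternatives were other scalings, floors, a pseudocount of 16, filters, variance models, a replicate block, the mean over probe sets and each array left out. Where an array was left out, the remaining array of that group is taken to spread as the other group does. The labels give no link between same-numbered arrays.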

Additional observations from a re-analysis of the deposited data

How the results depend on the processing

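None of the 6 tested genes passed limma's test under any alternative run. Over all probe sets, 3 passed with a pseudocount of 16, 6 without a filter on dim probe sets, 1 each without the trend and with the robust trend, 1 of 9012 genes with the mean over probe sets, and 0 in the other settings. The other floors, filters, variance models and the replicate block cannot move the difference of a gene above those floors. Under the other scalings and the pseudocount, Sgk1 lay between 0.68 and 0.79 and the sign of none of the 6 genes changed. With each array left out, Sgk1 ranged from 0.52 to 0.89, Hsd11b1 from -0.17 to 0.68, Nr3c1 from -0.0029 to 0.21, Fkbp5 from -0.59 to 0.29, Tsc22d3 from 0.0025 to 0.71 and Glul from -0.42 to 0.12. The same ranges were -0.68 to 0.88 for Akr1d1, -0.21 to 0.84 for Cyp11b1, -0.062 to 0.30 for Nr3c2, -0.11 to 0.044 for Cebpd, -0.16 to 1.04 for Cxcl1, -0.33 to 0.27 for Klf9, -0.32 to 0.59 for Lpin1 and -0.030 to 0.99 for Per1. Genes higher without overlap numbered 3 of the 6 with median centring and 1 to 4 with an array left out, and 13 to 21 of the 31 induced targets with an array left out, where 27% to 32.1% of all tested probe sets were higher without overlap. Induced targets lower without overlap then numbered 5 to 8, where 36.1% to 46% of all were lower. Fewer arrays overlap less by construction. List medians with an array left out ran from 0.050 to 0.27 for induced targets, 0.047 to 0.16 for the receptor and chaperones, -0.17 to 0.14 for repressed targets and -0.023 to 0.62 for steroid conversion. Median centring gave 0.18 for the receptor and chaperones, and no filter gave 0 for repressed targets, since that setting adds genes at the floor on all arrays. Cebpd turned to 0.049, 0.0098 and 0.020 with median centring, quantile normalization and cyclic loess and to 0.41 with the mean over probe sets, Klf9 to 0.050 with median centring and 0.0095 with the mean over probe sets, and Cyp11b1 to -0.084 with a floor set at the 10th percentile. The causes were not tested. With the replicate number as a block, 0 probe sets passed and 1103 had an unadjusted p under 0.05, against 1073 without it, and 0 of the 6 genes passed. The deviations of same-numbered arrays correlated with r = 0.048 across probe sets, over 2 pairs. With 2 arrays per group, and no background value to judge dim signals, differences of the size seen for Hsd11b1, Nr3c1, Fkbp5, Tsc22d3 and Glul were not detectable here. Sgk1, with the largest difference of the 6 genes, did not pass either, and 0 of 12929 probe sets passed in the main fit.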
